A study of Mus musculus with 6 samples.

Results

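The apolipoprotein genes of mouse liver were described across 6 RNA sequencing libraries of hepatic tissue. The 10 genes Apoa1, Apoa2, Apoa4, Apoa5, Apob, Apoc1, Apoc2, Apoc3, Apoe and Apom were taken by symbol from the 25690 rows of the expression table, and all 10 were found. The libraries held 3 samples of FTO knockout liver, from mice described as hepatic knockouts, and 3 of wild type control liver, and the study compared the liver transcriptome between them. The FTO protein demethylates N6-methyladenosine (m6A), a mark on messenger RNA. The allele, the promoter that drove the deletion, and the strain, sex, age and diet of the mice were not given in the sources used here. The labels do not tie each library to an animal of its own, so the spread behind every p-value is that between samples and may be technical. In bulk tissue, fewer cells of a type and less RNA per cell cannot be told apart.

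Apolipoproteins coat the particles that carry triglyceride and cholesterol through the blood, and the liver secretes most of them. APOB is the structural protein of very low density lipoprotein (VLDL), and APOA1 and APOA2 are the main proteins of high density lipoprotein (HDL). APOC2 activates lipoprotein lipase, APOC3 restrains it and APOA5 supports it. APOE is a ligand for receptors that clear particles, and APOM carries the lipid mediator sphingosine-1-phosphate on HDL.

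Values are FPKM, which correct fragment numbers for transcript length and library depth, so levels of different genes can be compared only roughly. The trend with transcript length differed between libraries, as given below. The FPKM of a library summed to 843847 to 1076602, and values were tested without rescaling unless stated. Depth inferred from the lowest values of the table was 34140000 to 42530000 fragments per library. Only values that read as 25000000 to 50000000 fragments were used, 49 to 60 per library. The result had to fall in that range, so it is an assumed depth and not a measured one. At that depth the shallowest member value, that of Apom in its lowest library, would correspond to about 2882 fragments, or a counting error of 1.86%. Of the values above 0, 50.7% carry more than 6 significant digits, and 95.7% of those end in 5, as means of a pair of values do. What was averaged is not stated, so fragment numbers are approximate and may span more than 1 run. Fto was at 1.79, 3.83 and 2.66 FPKM in FTO knockout replicates 1, 2 and 3, against 6.67, 6.02 and 6.40 FPKM in wild type replicates 1, 2 and 3. Its log2 change was -1.0 with an SE of 0.19 (limma adjusted p 0.0386), and Fto was not called without any of wild type replicates 1, 2 and 3, without knockout replicate 1 or 3 (adjusted p 0.0636 to 0.147), or with no filter on low values (0.197). Wild type replicate 3 stood apart by transcript length. Among 438 tested genes whose longest transcript had under 750 bases, its log2(FPKM + 1) lay a median of 0.52 above the mean of wild type replicates 1 and 2. Among 452 genes with 8000 bases or more it lay at a median of -0.16 on the same scale. The members ran from 518 bases (Apoa2) to 13934 bases (Apob). Wild type replicate 3 was the highest wild type library for 8 of the 10, and the log2 change of each member is therefore also given without it. For other results below this was done only in part, so a result without such a value may still depend on that library. None of the 10 genes was listed at 0. In other rows, 31 genes stood at 0 in some libraries while reaching at least 10 FPKM in others, so a 0 there can be an estimate that failed.

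**Figure D1:**
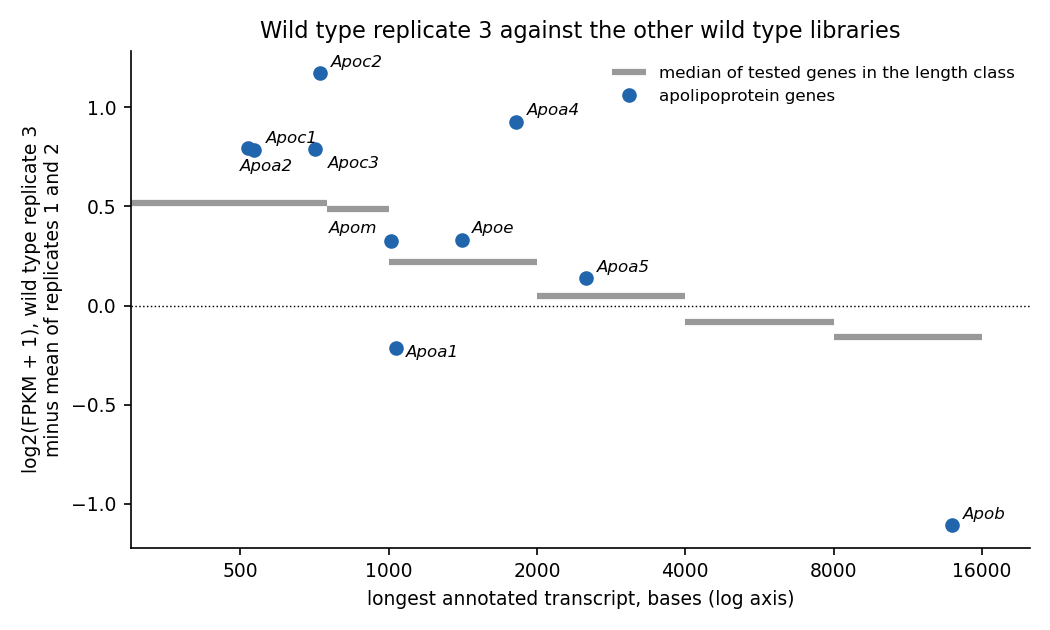
Difference in log2(FPKM + 1) between wild type replicate 3 and the mean of wild type replicates 1 and 2 (vertical axis) against the longest annotated transcript in bases (log axis). Grey bars are medians of tested genes per length class, falling from 0.52 to -0.16, and points are the 10 apolipoprotein genes, from 1.17 for Apoc2 to -1.11 for Apob.

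Apolipoprotein transcripts were among the most abundant of the tissue. Ordered by mean level over the 6 libraries, Apoa2 (28081 FPKM), Apoe (25194 FPKM) and Apoc1 (19635 FPKM) ranked 3, 6 and 8 among all genes. Apoa1 (5924 FPKM) and Apoc3 (4202 FPKM) followed, then Apoc2 (624 FPKM), Apob (475 FPKM), Apoa5 (409.9 FPKM), Apom (159.6 FPKM) and Apoa4 (111 FPKM). The 6-library ranges of neighbours in this order overlapped for all pairs other than Apoc1 above Apoa1, Apoc3 above Apoc2 and Apoa5 above Apom. Within groups, Apom averaged 224 FPKM and Apoa4 91.8 FPKM in knockout, against 95.3 FPKM and 131 FPKM in wild type, where Apoa4 stood higher. Apoc3 (4681 FPKM) likewise stood just above Apoa1 (4634 FPKM) in the wild type mean, but not in each library. In wild type replicate 1 Apoc3 was lower (3489 against 5789 FPKM). It was close to Apoa1 in replicate 2 (4053 against 3982 FPKM) and clearly higher only in replicate 3 (6502 against 4132 FPKM). Together the 10 genes held 9.29%, 8.36% and 8.47% of all FPKM in FTO knockout replicates 1, 2 and 3, against 9.28%, 8.80% and 11.1% in wild type replicates 1, 2 and 3. The groups overlapped, and wild type replicate 3 was the highest. With transcripts of the mitochondrial genome left out, the shares were 12.19%, 11.5% and 11.5% in knockout replicates 1, 2 and 3. They were 13.3%, 12.24% and 14.4% in wild type replicates 1, 2 and 3. These did not overlap, but only narrowly so for knockout replicate 1 and wild type replicate 2, and were not tested. Apoa2, Apoe and Apoc1 made up 82.5% to 84.5% of the sum of the 10 genes in knockout libraries, against 85.8% to 89.2% in wild type libraries.

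**Figure D2:**
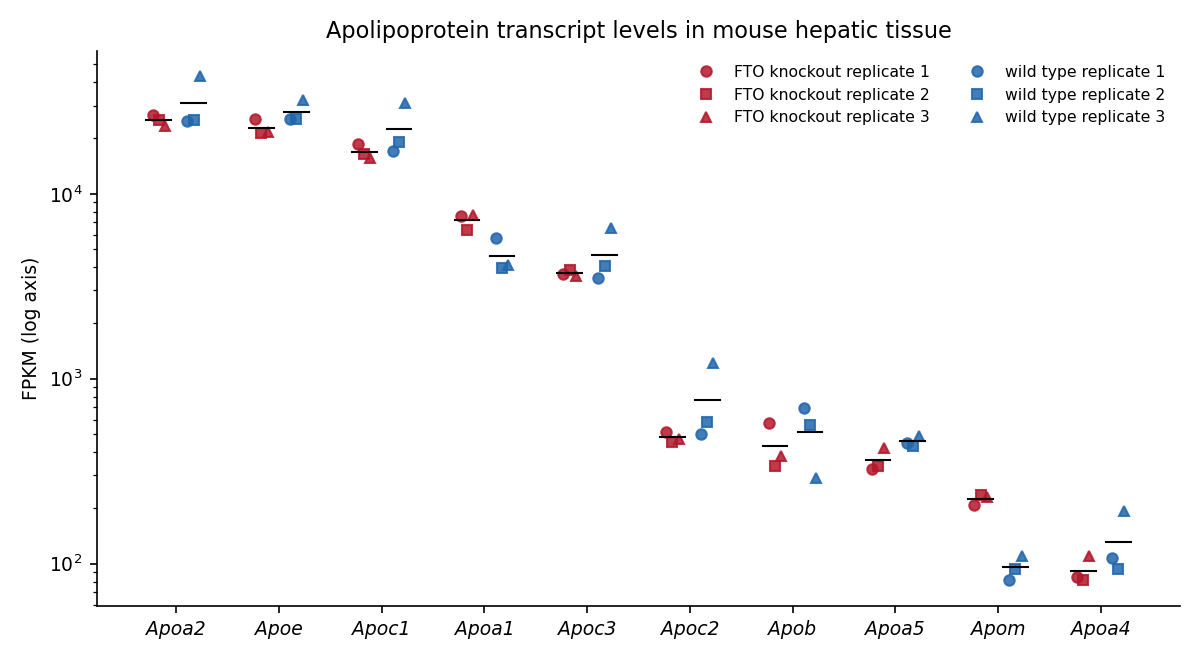
FPKM of the 10 apolipoprotein genes (log axis) in each library, with FTO knockout at the left and wild type at the right of each gene. Points are libraries, shaped by replicate number, which pairs nothing between groups, and black lines are means of 3. Knockout and wild type do not overlap for Apom, Apoa1 and Apoa5.

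Apom was the only apolipoprotein gene called in the knockout, and a gene that was not called may still differ. Calls were made by limma over the 10405 genes whose mean was 1 FPKM or more, with a threshold of 0.05 on the p adjusted by Benjamini and Hochberg. Of the 10 members 1 was called higher, where 1.11% of all tested genes were. By the same limma fit 0 were called lower, where 1.65% of all tested genes were. At an unadjusted p under 0.05, 2 were higher (Apom, Apoa1) and 1 was lower (Apoa5) (18.7% of all tested genes passed in either direction, 900 higher and 1043 lower). The 3 knockout libraries lay above all wild type libraries for 2 members (11.5% of all tested genes) and below them for 1 member (13.0%). Log2 changes were below 0 for the other 8 members, with a median of -0.27 over the 10 and of -0.0018 over all tested genes. Without wild type replicate 3 the median of the 10 was -0.12, and Apom was still the member called. In an alternative chosen after the data were seen, a trend with transcript length was removed from each library. Apoa2, Apoa5, Apoc1, Apoc2, Apoc3 and Apoe then lay lower in every knockout library than in every wild type library, 6 of the 10 members where 14.4% of 10309 tested genes did so. Their log2 changes were -0.62 (Apoc2) to -0.27 (Apoe), none was called (limma adjusted p 0.115 to 0.291), and Apom was called. Without wild type replicate 3, and with no trend removed, the log2 changes of Apoa2, Apoc1, Apoc2 and Apoc3, the 4 members under 750 bases, were -0.17 (Apoc2) to 0.0018 (Apoa2), so their size depended on how that library was treated. That of Apoa5 was -0.35 in the full set, -0.30 without that library and -0.34 with the trend removed.

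**Figure D3:**
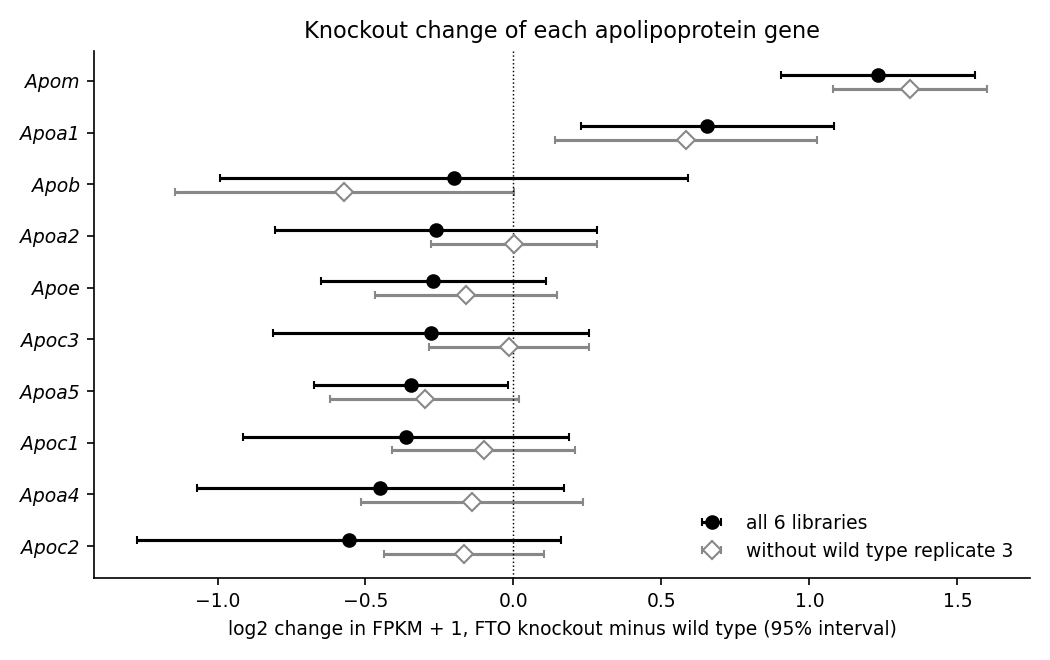
Log2 change of FPKM + 1, FTO knockout minus wild type, with its 95% confidence interval from limma, for each gene. Filled points use all 6 libraries and open points leave out wild type replicate 3. Apom (1.23 and 1.34) and Apoa1 (0.65 and 0.58) lie to the right of 0 in both.

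Apom (ENSMUSG00000024391, chromosome 17, 35128997 to 35132050, minus strand, mm10) encodes a lipocalin-type protein of HDL. It was at 208, 235 and 228 FPKM in FTO knockout replicates 1, 2 and 3, against 82.0, 93.9 and 110.0 FPKM in wild type replicates 1, 2 and 3. Every knockout library was above every wild type library, and the lowest knockout value was 1.89 times the highest wild type value. Apom averaged 224 ± 14.0 FPKM in knockout and 95.3 ± 14.1 FPKM in wild type (SD, n = 3 each), a 2.35-fold rise. The log2 change was 1.23 (SE 0.14, 95% interval 0.90 to 1.56, limma adjusted p 0.00597), and the adjusted p was 0.0656 when no filter on low values was used. Over the alternatives the log2 change ran from 1.13 to 1.34, and the adjusted p stayed at 0.0476 or less with any single library left out.

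Promoter windows from RefSeq (GRCm38.p6, the assembly of mm10), 250 bases before to 50 after a start, matched 8 of the 10 genes with 12 windows, Apoc1 and Apoc3 having none. They were searched on both strands for AGGTCA, a half-site of nuclear receptors such as LXR and PPAR alpha, for the variant GGGTCA, and for the TATA box letters TATAAA, none of which overlap each other as searched. AGGTCA was in 2 of the 12 member windows (Apoa2 and Apoc2) and in 16.3% of all 32851 windows. GGGTCA was in 4 of the 12 (of Apoa5, Apoe and Apom) and in 13.7% of all windows. TATAAA was in 5 of the 12 (of Apoa2, Apoa5, Apob and Apoe) and in 13.6% of all windows. Such a match describes letters, not a binding site. The next 3 sequences are shown for the gene called higher (Apom) and for Apoa1 and Apoa5, genes of 1 cluster whose log2 changes had opposite signs. Capitals mark matches, and TGACCC is the second motif read on the other strand. The Apom stretch is 30 bases around that motif, at chr17:35131816-35131845 on the minus strand, with 14 bases between its end and the RefSeq start. GENCODE M21 places it inside the first exon, whose start lies further upstream. The other stretches end before both the RefSeq and the GENCODE start, at chr9:46228380-46228579 for Apoa1 and chr9:46268358-46268607 for Apoa5, both on the plus strand. The Apoa1 stretch held none of the searched motifs.
Apom: tagcaggttaaaGGGTCAagggtcgaggcg
Apoa1: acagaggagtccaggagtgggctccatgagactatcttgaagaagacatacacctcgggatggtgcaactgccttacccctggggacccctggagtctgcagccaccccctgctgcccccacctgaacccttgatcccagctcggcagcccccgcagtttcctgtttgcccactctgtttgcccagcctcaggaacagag
Apoa5: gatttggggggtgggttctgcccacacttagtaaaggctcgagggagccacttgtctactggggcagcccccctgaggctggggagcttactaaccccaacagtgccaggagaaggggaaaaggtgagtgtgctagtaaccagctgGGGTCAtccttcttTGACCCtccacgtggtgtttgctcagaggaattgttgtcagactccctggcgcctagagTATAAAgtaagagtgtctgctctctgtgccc

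Apoa1 (ENSMUSG00000032083, chromosome 9, 46228580 to 46230466), the main HDL protein and the activator of the cholesterol esterifying enzyme LCAT, had the next largest log2 change of the members, though not the next largest ratio of means. It was at 7611, 6385 and 7643 FPKM in FTO knockout replicates 1, 2 and 3, against 5789, 3982 and 4132 FPKM in wild type replicates 1, 2 and 3. No wild type library reached the knockout values. The means were 7213 ± 718 FPKM in knockout and 4634 ± 1003 FPKM in wild type (SD, n = 3 each), a ratio of 1.56. The log2 change of 0.65 (SE 0.18, 95% interval 0.23 to 1.08) did not pass the threshold in limma (adjusted p 0.115), and the adjusted p ran from 0.0596 to 0.515 over the alternatives. Unlike the 4 members under 750 bases, Apoa1 was not raised in wild type replicate 3, where it was 0.846 times the mean of wild type replicates 1 and 2. With the length trend removed from each library, the log2 change was 0.63 and the groups of Apoa1 overlapped.

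Apoa2 (ENSMUSG00000005681, chromosome 1, 171225054 to 171226379), the other main HDL protein, had overlapping groups. It was at 26692, 25105 and 23368 FPKM in FTO knockout replicates 1, 2 and 3, against 24793, 25182 and 43344 FPKM in wild type replicates 1, 2 and 3. Wild type replicate 3 was 1.73 times the mean of the other wild type libraries. The log2 change was -0.26 (SE 0.23, 95% interval -0.81 to 0.28, limma adjusted p 0.606). Without wild type replicate 3 it was 0.0018, with a 95% interval of -0.28 to 0.28. The ratio of Apoa2 to Apoa1 was 3.51, 3.93 and 3.06 in knockout replicates 1, 2 and 3, against 4.28, 6.32 and 10.5 in wild type replicates 1, 2 and 3. The ratio was lower in every knockout library than in every wild type library, and it is given without a test.

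The member genes that regulate lipoprotein lipase, Apoa5, Apoc2 and Apoc3, had lower means in knockout, and no difference passed the test. Apoa5 (ENSMUSG00000032079, chromosome 9, 46268633 to 46271919) was at 326, 339 and 421 FPKM in FTO knockout replicates 1, 2 and 3, against 452, 435 and 488 FPKM in wild type replicates 1, 2 and 3. The knockout libraries stayed below the lowest wild type library, with a log2 change of -0.35 (SE 0.14, 95% interval -0.67 to -0.019, limma adjusted p 0.242). Without wild type replicate 3 it was -0.30. Apoc2 (ENSMUSG00000002992, chromosome 7, 19671579 to 19677941), the cofactor that lipoprotein lipase needs, was at 517, 456 and 472 FPKM in knockout replicates 1, 2 and 3, against 500.4, 583 and 1218 FPKM in wild type replicates 1, 2 and 3. The groups overlapped, and wild type replicate 3 was 2.25 times the mean of the other wild type libraries. The log2 change of Apoc2 was -0.56 (SE 0.31, adjusted p 0.391) and -0.17 without that library (95% interval -0.44 to 0.10).

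Apoc3 (ENSMUSG00000032081, chromosome 9, 46232933 to 46235636), the inhibitor of this lipase, was at 3698, 3887 and 3586 FPKM in FTO knockout replicates 1, 2 and 3, against 3489, 4053 and 6502 FPKM in wild type replicates 1, 2 and 3. The knockout values lay between wild type replicates 1 and 2, and the log2 change of -0.28 (SE 0.23, limma adjusted p 0.574) was -0.015 without wild type replicate 3. The ratio of activator to inhibitor, Apoc2 to Apoc3, was 0.117 to 0.140 in knockout libraries, against 0.143 to 0.187 in wild type libraries, and is given without a test. In the annotation Apoc2 lies almost wholly inside a gene that reads through from Apoc4 (Gm44805, 6358 shared bases on the same strand). Gm44805 had no row in the expression table. The sources used here do not give how fragments from shared exons were assigned, so the level of Apoc2 is uncertain. Apoa4 and Apoa5 overlap annotated genes on the opposite strand, and it is not stated whether counting used the strand.

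Apob (ENSMUSG00000020609, chromosome 12, 7977648 to 8016835), which encodes the structural protein of VLDL, had the largest SE of the 10 genes. It was at 579, 337 and 383 FPKM in FTO knockout replicates 1, 2 and 3, against 698, 563 and 290.0 FPKM in wild type replicates 1, 2 and 3. Wild type replicate 3 was the lowest of all libraries, the opposite of its place for the short members. The log2 change was -0.20 (SE 0.34, 95% interval -0.99 to 0.59, limma adjusted p 0.813). It was -0.57 without wild type replicate 3 and 0.06 without wild type replicate 1, so the value and its sign depended on which wild type library was used. A direction of change for Apob was not detectable with these libraries.

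The receptor ligand gene Apoe (ENSMUSG00000002985, chromosome 7, 19696109 to 19699188) was at 25514, 21263 and 21623 FPKM in FTO knockout replicates 1, 2 and 3, against 25346, 25447 and 31973 FPKM in wild type replicates 1, 2 and 3. Knockout replicate 1 lay between the wild type values, and the log2 change was -0.27 (SE 0.16, limma adjusted p 0.431) and -0.16 without wild type replicate 3. Macrophages also make APOE, and the summed level of 12 Kupffer cell and macrophage markers was 212 to 373 FPKM in knockout libraries, against 74.4 to 255 FPKM in wild type libraries. All 12 were tested and limma called 0, while the unadjusted p was under 0.05 for 5 with higher levels and 0 with lower ones, where 900 of the 10405 tested genes were higher. All 12 log2 changes were above 0, with a median of 0.89, and of 1.22 without wild type replicate 3. Without wild type replicate 3, 5 were called higher, where 2.56% of all tested genes were. Of these markers, Clec4f was at 51.7, 37.5 and 62.4 FPKM in knockout replicates 1, 2 and 3, against 16.0, 26.6 and 48.8 FPKM in wild type replicates 1, 2 and 3. Lyz2 was at 61.7, 44.0 and 81.7 FPKM in knockout replicates 1, 2 and 3, against 10.7, 20.1 and 46.9 FPKM in wild type replicates 1, 2 and 3. Without wild type replicate 3, Lyz2 was among the markers called and Clec4f was not (limma adjusted p 0.0617). Knockout replicate 3 was highest and wild type replicate 1 lowest for Clec4f, for Lyz2 and for the sum. The part of macrophages in the level of Apoe was not tested.

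Apoc1 (ENSMUSG00000040564, chromosome 7, 19689481 to 19692660), a small protein that exchanges between particles, was at 18648, 16326 and 15600.3 FPKM in FTO knockout replicates 1, 2 and 3, against 17086, 19028 and 31119.5 FPKM in wild type replicates 1, 2 and 3. The groups overlapped, and the log2 change of -0.36 (SE 0.24, limma adjusted p 0.468) was -0.10 without wild type replicate 3. Apoa4 (ENSMUSG00000032080, chromosome 9, 46240696 to 46243459), better known as an intestinal apolipoprotein and also made by mouse liver, was at 84.3, 81.1 and 110.0 FPKM in knockout replicates 1, 2 and 3, against 107, 94.0 and 192 FPKM in wild type replicates 1, 2 and 3. The groups overlapped, and the log2 change was -0.45 (SE 0.27, adjusted p 0.424) and -0.14 without wild type replicate 3. Of 9 intestinal epithelium markers, Cdx1, Cdx2, Lct, Sis, Fabp6 and Alpi were listed at 0 in all 6 libraries. The summed level of the list was 83.2 to 116 FPKM in knockout libraries, against 164 to 343 FPKM in wild type libraries, and it lay almost wholly in Fabp2, a fatty acid binding protein gene. Fabp2 had a log2 change of -1.05 (limma adjusted p 0.111), and of -0.70 without wild type replicate 3. With the length trend removed it was called lower, where 295 of 10309 tested genes were. The part of intestinal cells in the level of Apoa4 was not tested.

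The genes lie in 2 chromosomal clusters and 3 places outside them, and differences between neighbours in a cluster are given without a test. Apoa1, Apoc3, Apoa4 and Apoa5 lie within 43.34 kb of chromosome 9 (46228580 to 46271919), and their log2 changes were 0.65, -0.28, -0.45 and -0.35 in that order. Apoc3 is transcribed from the strand opposite to its neighbours. The ratio of Apoc3 to Apoa1 was 0.486, 0.609 and 0.469 in FTO knockout replicates 1, 2 and 3, against 0.603, 1.02 and 1.57 in wild type replicates 1, 2 and 3, with overlapping groups. Apoe, Apoc1, Apoc4 and Apoc2 lie within 27.61 kb of chromosome 7 (19671579 to 19699188), all on the minus strand, with log2 changes of -0.27, -0.36, -0.01 and -0.56. Apoc4, named for its place between members, was at 2118, 1889 and 1751 FPKM in knockout replicates 1, 2 and 3, against 1608, 1765 and 2503 FPKM in wild type replicates 1, 2 and 3.

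**Figure D4:**
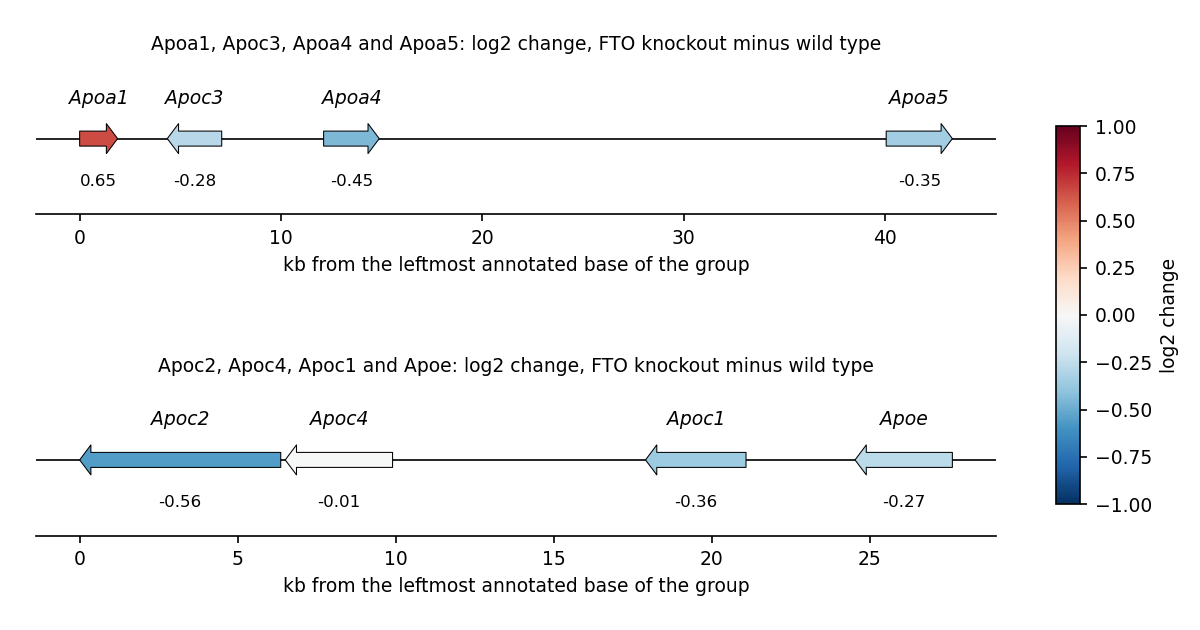
Position of each gene in kb from the leftmost annotated base of its cluster, with arrows in the direction of transcription. Colour and the number under each arrow give the log2 change, FTO knockout minus wild type. In the cluster of Apoa1 that gene (0.65) stands beside neighbours between -0.45 and -0.28.

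The transcripts were also searched for GGACT, a form of the sequence in which m6A is often placed, on the transcript strand of the longest annotated transcript. It was present in 9 of the 10 members and in 90.7% of the 10309 tested genes with an annotated transcript. Apom had 1 match, or 0.987 per kb, Apob had 15, or 1.08 per kb, and Apoc1 had 0. The median of all tested genes was 1.02 per kb, with quartiles of 0.603 and 1.49. No methylation was measured here, so a match says nothing of m6A on these transcripts.

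Around the apolipoproteins, 5 lists of lipoprotein genes held 102 genes, of which 91 were tested. Of these limma called 2 higher and 0 lower, leaving 89, where 1.11% of all tested genes were called higher and 1.65% lower. The unadjusted p was under 0.05 for 7 with higher and 8 with lower levels, a share near the 18.7% of all tested genes. Lsr, a receptor that takes up triglyceride-rich particles, was at 67.1, 55.4 and 65.4 FPKM in FTO knockout replicates 1, 2 and 3, against 34.4, 35.9 and 35.6 FPKM in wild type replicates 1, 2 and 3. It rose 1.77-fold without overlap (log2 change 0.80, SE 0.12, adjusted p 0.0147). Lpl, the lipase that APOC2 activates, rose 2.19-fold to 2.60 ± 0.497 FPKM in knockout, against 1.19 ± 0.0593 FPKM in wild type (SD, n = 3 each; log2 change 0.71, adjusted p 0.0280). The call of Lsr was lost without knockout replicate 1, knockout replicate 3 or wild type replicate 2 (adjusted p 0.0620 to 0.0812). That of Lpl was lost without knockout replicates 2 and 3 and wild type replicates 1 and 2, each left out singly (0.0643 to 0.106). Neither was called when low genes were kept in (0.0661 for Lsr and 0.137 for Lpl).

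Of 14 tested genes of lipases, lipid transfer and HDL remodelling, limma called 1 higher (Lpl) and 0 lower, leaving 13. Among all tested genes 1.11% were called higher and 1.65% lower. The unadjusted p was under 0.05 for Lpl and for 6 genes with lower levels, where 1043 of the 10405 tested genes were lower. Pltp, which moves phospholipid onto HDL, was at 12.2, 14.8 and 25.0 FPKM in FTO knockout replicates 1, 2 and 3, against 45.2, 31.7 and 55.4 FPKM in wild type replicates 1, 2 and 3. Its log2 change was -1.32 (SE 0.28) at an adjusted p of 0.0562, and 5 alternatives, among them median-ratio size factors, put it under the threshold (0.0242 to 0.0476). Abcg5, a sterol exporter gene, averaged 25.0 ± 4.57 FPKM in knockout and 37.4 ± 3.34 FPKM in wild type (SD, n = 3 each; adjusted p 0.0955). The median log2 change of this list was -0.24.

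Of 14 tested genes of lipoprotein receptors and uptake, limma called 1 higher (Lsr) and 0 lower, leaving 13. Of all tested genes, 1.11% were called higher and 1.65% lower. The unadjusted p was under 0.05 for 2 with higher levels and 1 with a lower level, where 18.7% of all tested genes passed. The median log2 change was -0.04. In that list Pgrmc1 had a log2 change of -0.32 (adjusted p 0.198) and the heparan sulfate proteoglycan gene Sdc1 of -0.34 (adjusted p 0.424). Vldlr, also listed there, averaged under 1 FPKM over the 6 libraries and was not tested. It was at 0.20, 0.27 and 0.084 FPKM in FTO knockout replicates 1, 2 and 3. In wild type replicates 1, 2 and 3 it was at 0.99, 1.10 and 1.34 FPKM, so the groups did not overlap at these low levels.

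Of 20 genes of lipoprotein assembly and secretion limma called 0, where 1.11% of all tested genes were called higher and 1.65% lower. The unadjusted p was under 0.05 for 2 with higher levels (Apobec1 and Aup1) and 0 with lower ones. That is a smaller share than the 18.7% of all tested genes, and the median log2 change was -0.11. Apobec1, the enzyme that edits Apob RNA so that a shorter protein is made, averaged 13.8 ± 2.06 FPKM in knockout and 8.78 ± 1.62 FPKM in wild type (SD, n = 3 each; adjusted p 0.103). With the length trend removed its adjusted p was 0.0465. Sec24d and Tm6sf2, of vesicle export and VLDL lipidation, had log2 changes of -0.31 and -0.28 (adjusted p 0.352 and 0.335).

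Among 29 tested transcription regulators of apolipoprotein genes limma called 0, where 1.11% of all tested genes were called higher and 1.65% lower. The unadjusted p was under 0.05 for Foxa3 and Hnf4a, with higher levels, and for Cebpb, with a lower one. That is a smaller share than the 18.7% of all tested genes, and the median log2 change was 0.09. Hnf4a, a nuclear receptor that activates many apolipoprotein genes, was at 83.4, 83.9 and 102 FPKM in FTO knockout replicates 1, 2 and 3, against 76.6, 74.3 and 64.6 FPKM in wild type replicates 1, 2 and 3. Its groups did not overlap, with a log2 change of 0.31 (SE 0.13, adjusted p 0.258). Foxa3, a liver forkhead factor, had a log2 change of 0.56 (adjusted p 0.117), Creb3l3 of 0.27 (adjusted p 0.278) and Cebpb of -0.34 (adjusted p 0.184). Of 14 tested further apolipoprotein and HDL protein genes limma called 0. The unadjusted p was under 0.05 for 0 of them, where 18.7% of all tested genes passed, and the median log2 change was 0.03. In that list Apoh averaged 1931 ± 62.5 FPKM in knockout and 1632 ± 75.1 FPKM in wild type (SD, n = 3 each; adjusted p 0.336). Log2 changes there were -0.44 for Apol7a, -0.25 for Apool and -0.27 for the HDL enzyme gene Pon1.

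**Figure D5:**
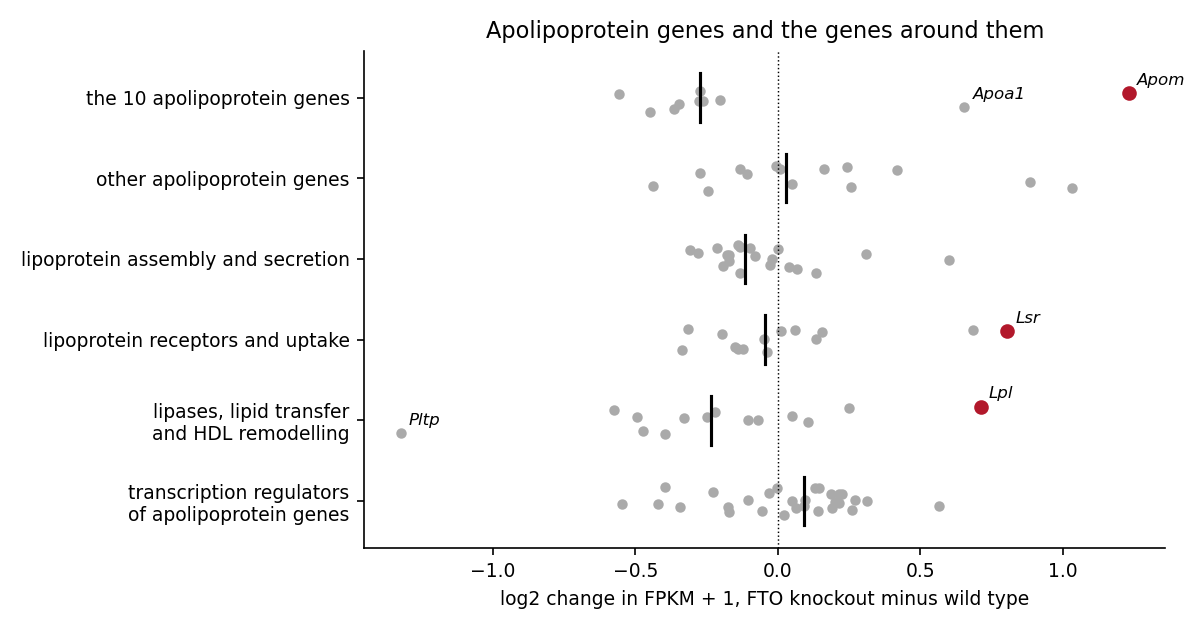
Log2 change of FPKM + 1, FTO knockout minus wild type, of each tested gene in the 10 apolipoprotein genes and the 5 lists around them. Large red points are genes called by limma, small grey points are not called, and black bars are list medians. Apom, Lsr and Lpl are the called genes, and Pltp lies furthest to the left at -1.32.

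Hepatocyte markers were abundant in every library, as in the labelled tissue. The 11 in the table summed to 48047 to 50763 FPKM in FTO knockout libraries, against 41764 to 53986 FPKM in wild type libraries. The unadjusted limma p was under 0.05 for 4 with higher levels and 0 with lower ones, where 900 of the 10405 tested genes were higher. Their median log2 change was 0.14, and 0.29 without wild type replicate 3. With the length trend removed 2 were called higher, where 218 of 10309 tested genes were. In that list 1 gene was called higher (Ahsg, 1.56-fold, limma adjusted p 0.0425), a call kept with wild type replicate 3 left out and lost with any other library left out (0.0944 to 0.206). The call was also lost with quantile normalization (0.0933), rescaling without mitochondrial transcripts and genes listed at 0 (0.0604), robust empirical Bayes (0.0511) and no filter (0.244). Adipocyte markers were at 11.5 to 14.9 FPKM in knockout libraries, against 17.8 to 45.4 FPKM in wild type libraries, mostly from Fabp4. In that list Cfd fell to 0.951 ± 0.317 FPKM in knockout, against 5.34 ± 1.10 FPKM in wild type (SD, n = 3 each; adjusted p 0.00388), while Adipoq, Lep and Plin1 stood at 0.233 FPKM or less in all libraries. The call of Cfd was lost with no filter on low values (limma adjusted p 0.0777). Summed levels of blood and vessel markers overlapped between the groups. Erythroid markers summed to 316 to 457 FPKM in knockout libraries, against 406 to 875 FPKM in wild type libraries. Of 5 tested, limma called 0 and all 5 had lower means in knockout, with an unadjusted p under 0.05 for 4 (1043 of the 10405 tested genes were lower at that threshold) and a median log2 change of -0.72. Without wild type replicate 3 that median was -0.43. Endothelial markers summed to 103 to 141 FPKM in knockout libraries, against 80.5 to 175 FPKM in wild type libraries, and stellate cell and cholangiocyte sums overlapped likewise. Pancreas markers were under 1 FPKM in all libraries for 7 of 8 genes. The part of these cells in the change of Apom was not tested.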

How the data were processed

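RNA from hepatic tissue was sequenced in 6 libraries. Groups came from the genotype labels, and replicate numbers follow sample order. The deposited table holds FPKM per Ensembl gene. Per the submitters' processing notes the authors used TopHat2 2.1.0, HTSeq and Cufflinks 2.2.1 with mm10. Their roles and the annotation release are not given in the sources used here. FPKM keeps no counts, so no count model was used. Symbols (24807 of 25690 identifiers), positions and lengths came from GENCODE M21. Genome-wide tests used limma 3.58.1 in R 4.3.3 (lmFit, eBayes with trend, two-sided) on log2(FPKM + 1) for genes averaging 1 FPKM or more. This scale understates changes of low genes, so folds were taken as ratios of mean FPKM. The fit was tested on simulated data. Depth was inferred from 964 single-transcript genes of 3000 to 8000 bases, reading values that gave 25000000 to 50000000 fragments as 1 fragment. The members and lists were chosen with earlier results of these data known. Named genes are the members, Fto, Apoc4 for its position, and the called and up to 4 smallest-p genes of each pathway list. Of marker lists they are called genes and otherwise the 2 most abundant, given where they bear on a result. Vldlr was added after the data were seen, because the filter left it untested. Of the pathway genes, 2 are not reported here. Alternatives were median-ratio size factors, quantile normalization, rescaling without mitochondrial transcripts and genes listed at 0, robust empirical Bayes, no filter, a pseudocount of 0.1, leaving out each library and, chosen after the data were seen, removal of a transcript length trend (lowess, span 0.3).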

Additional observations from a re-analysis of the deposited data

How the results depend on the processing

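Of 130 log2 changes of the 10 members under the alternatives, 127 kept their direction and their side of the threshold, 1 lost its call (Apom with no filter on low values) and 2 changed sign. Those were Apoa2, which ran from -0.40 to 0.0018 when single libraries were left out, and Apob, which ran from -0.57 to 0.060. Of 338 values of the other 26 named genes, Vldlr not included, 300 stayed alike and 25 lost a call. A further 8 gained a call, and 5 changed sign, these all in Apoc4. Its log2 change was 0.081 with quantile normalization, 0.0064 with the length trend removed and -0.14 to 0.18 with single libraries left out. The count of called genes was 287, and 79 with no filter, 513 with the length trend removed and 77 (without FTO knockout replicate 3) to 475 (without wild type replicate 3) with single libraries left out. It was 127 without knockout replicate 1 and 114 without wild type replicate 2. The count of called members was 1, and 0 with no filter, which tests all 25690 rows. The count in the pathway lists was 2, and 0 with no filter, 4 with the length trend removed and 0 to 3 with single libraries left out. Other causes were not tested. No paired analysis was possible because the replicate numbers follow sample order and the labels pair no libraries.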
